A study of Mus musculus with 8 samples.

Results

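Collagen genes were followed across intestinal tumours and non-tumour mucosa in mice with and without the protease inhibitor HAI-1. The genes were those whose platform symbol is Col, a number, a and a number, measured by probe sets listed for 1 gene only. They came to 42 of the 18194 genes with such a probe set. The 42 fell into 11 fibrillar genes, 6 genes of type IV, the collagen of basement membranes, and 25 others. All 8 samples came from C57BL/6 mice on the AIN-76 diet that were heterozygous for the Min mutation of Apc and homozygous for a loxP-flanked Spint1, the gene of HAI-1. Controls, Apc (Min/+)/Spint1 (flox/flox), carried no Cre. HAI-1 deficient mice, Apc (Min/+)/Spint1 (flox/flox)/Vil-Cre, carried a Cre transgene driven by the villin promoter, which acts in intestinal epithelium and leaves fibroblasts, endothelium and muscle with an intact Spint1. Non-tumour small-intestinal mucosa and small-intestinal tumours were each measured on 2 Affymetrix arrays per genotype, from 6 ug of total RNA per labelling. The labels used here give no age. They leave unsaid if both arrays in a group are from separate animals, and if a tumour and a mucosa sample share an animal. P-values therefore measure only the spread between these samples, which may be technical.

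Collagens are secreted proteins of 3 chains wound into a triple helix. Fibrillar collagens assemble into the banded fibrils of connective tissue, with type I and type III as the bulk of the intestinal stroma and type V as a minor chain that starts fibrils. Type IV forms the sheet-like network under epithelia and around vessels. Other classes lie on fibrils, form beaded filaments next to cells or span the cell membrane. In the intestine most collagen is made by fibroblasts, smooth muscle and vessel cells rather than by the epithelium.

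Of the 42 genes 29 were tested. Of these, 6 were higher in tumours than in mucosa in both genotypes, at the test threshold given further on. They were Col1a2, Col3a1, Col5a1, Col5a2, Col9a3 and Col13a1. Over all genes tested 21.2% were called higher in control tumours and 2.45% in deficient tumours. The share called higher in both was not computed. RefSeq promoter entries were found for 33 of the 42 genes and for 4 of these 6, and the 250 bases before the start of those 4 are shown because these genes carry the calls shared by both genotypes. The build is GRCm38.p6. The windows are chr6:4505368-4505617 on the plus strand, chr1:45311288-45311537 on the plus strand, chr2:27886175-27886424 on the plus strand and chr10:61979109-61979358 on the minus strand. Capitals mark 3 short motifs searched on both strands. The CCAAT motif reads ATTGG when it lies on the other strand. The TATAAA motif reads TTTATA there. The GGGCGG motif reads CCGCCC there. No base belonged to more than 1 motif in these windows.
Col1a2: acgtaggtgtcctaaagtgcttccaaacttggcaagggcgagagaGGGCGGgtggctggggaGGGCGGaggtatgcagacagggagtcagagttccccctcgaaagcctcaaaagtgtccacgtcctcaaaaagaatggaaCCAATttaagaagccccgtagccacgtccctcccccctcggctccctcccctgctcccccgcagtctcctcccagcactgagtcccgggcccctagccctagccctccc
Col3a1: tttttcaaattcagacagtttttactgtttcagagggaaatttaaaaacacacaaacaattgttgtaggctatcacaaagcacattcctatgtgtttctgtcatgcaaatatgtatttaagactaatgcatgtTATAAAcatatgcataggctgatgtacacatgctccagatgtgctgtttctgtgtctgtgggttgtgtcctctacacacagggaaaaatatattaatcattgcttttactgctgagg
Col5a1: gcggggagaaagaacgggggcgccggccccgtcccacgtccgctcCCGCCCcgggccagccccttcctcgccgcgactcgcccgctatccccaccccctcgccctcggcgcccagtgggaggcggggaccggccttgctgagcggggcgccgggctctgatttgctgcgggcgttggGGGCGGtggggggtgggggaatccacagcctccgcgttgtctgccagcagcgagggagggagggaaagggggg
Col13a1: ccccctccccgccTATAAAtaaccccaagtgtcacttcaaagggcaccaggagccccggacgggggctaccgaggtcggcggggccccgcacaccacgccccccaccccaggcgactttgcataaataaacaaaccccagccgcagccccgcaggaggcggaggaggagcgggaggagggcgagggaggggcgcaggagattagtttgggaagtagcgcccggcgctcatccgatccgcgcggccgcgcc
The Col1a2 window held 1 CCAAT and 2 GGGCGG, the Col5a1 window 2 GGGCGG, and the Col3a1 and Col13a1 windows 1 TATAAA each. Over all 32851 promoter windows of this length, 33.8% held CCAAT, 12.4% TATAAA and 32.7% GGGCGG. Over the 36 windows of collagen genes the shares were 36.1%, 13.9% and 58.3%. No motif occurred in all 4 windows.

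Values are log2 signals, and levels are not compared between genes because probe sets differ in brightness. A gene was tested when the mean of its brightest probe set over the 8 arrays reached a filter value of 5.20 log2, which is the 40th percentile over probe sets. This held for 13119 genes, 29 collagens among them. Of these 29, 9 had at least 1 group mean under the filter value and 5 of the 9 had it in control mucosa, so they passed partly through the groups where they were high. The tested set thus leans towards genes with a high group. Differences come from a limma fit over all 8 arrays and are given with the standard error of the fit. A gene was called at a Benjamini-Hochberg adjusted p under 0.05 over the 13119 genes. Where an array of the lower group lay under 5.20, it was raised to that value and the difference is given as at least so much.

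Spint1 read 12.75 to 13.06 on the 4 control arrays, 12.46 and 12.25 in deficient mucosa and 11.76 and 11.84 in deficient tumours, so the groups did not overlap (limma adjusted p = 0.271 in mucosa and 0.779 in tumours). On the second control tumour array the 3' end of Gapdh was 25.9 times as bright as the 5' end, and 0.803 to 1.77 times on the rest. For Actb the same ratio was 2.32 on that array and 1.15 to 1.52 on the rest. The spike-in controls averaged 7.90 to 8.35 log2 on array 2 of all groups except control tumours, and 6.22 to 7.02 on the other 5 arrays. No label explains this split, whose sides are called the low and high spike-in batches. Epithelial marker genes had a mean of 14.11 to 14.50 log2 on every array, so both tissues held abundant epithelium. Single markers differed in direction. Krt18 rose in control tumours (1.81 ± 0.22, limma adjusted p = 0.00231). Vil1 was at -0.52 in control tumours and -0.65 in deficient tumours (adjusted p = 0.138 and 0.145). Enterocyte markers had a mean of 14.52 to 14.77 in mucosa and 13.69 to 14.22 in tumours. Of the 4 measured, Lct, the brush border enzyme lactase, fell in control tumours (-2.25 ± 0.61, adjusted p = 0.0294) and was at -2.58 ± 0.61 in deficient tumours (adjusted p = 0.0584), while Alpi, Fabp2 and Apoa4 lay between -0.25 and 0.34 in both.

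In control mice, tumours carried far more fibrillar collagen RNA than mucosa. Of 8 tested fibrillar genes 7 rose, none fell and 1 did not pass. Across the family 20 of 29 rose, none fell and 9 did not pass. Over all genes tested 28.8% were called, 21.2% higher and 7.64% lower. Both tumour arrays lay above both mucosa arrays for 23 of the 29, which holds for 45.3% of all genes, and both lay below for 0 of 29, which holds for 23.6%. The median difference was 3.28 log2 for fibrillar, 2.84 for type IV and 1.78 for other collagens, against 0.24 over all genes tested. In whole tissue, more cells of a type and more RNA per cell cannot be told apart. Within the low spike-in batch, with 2 tumour arrays against 1 mucosa array, the 3 medians were 3.53, 2.76 and 1.56.

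Col1a2, a chain of type I collagen, read 8.19 and 8.44 in control mucosa and 12.77 and 12.46 in control tumours. The tumour arrays lay well above both mucosa arrays, a difference of 4.30 ± 0.25 log2 or 19.7-fold (SE, n = 2 arrays per group, limma adjusted p = 0.000454). Col1a1, the other type I chain, read 6.37 and 6.53 in mucosa against 10.19 and 9.95 in tumours and rose 12.3-fold (3.62 ± 0.36, adjusted p = 0.00136). Col3a1, the type III chain found in fibrils beside type I, read 10.08 and 10.06 against 13.40 and 13.49 and rose 10.4-fold (3.38 ± 0.29, adjusted p = 0.000996). The replicates of these 3 genes lay far closer to each other than the tissues did.

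Type V chains join type I in the same fibrils. Col5a2 read 6.66 and 7.07 in mucosa and 11.25 and 10.99 in tumours, a 19.1-fold rise (4.26 ± 0.27 log2, adjusted p = 0.000588). Col5a1 read 6.63 and 6.43 against 9.80 and 9.64 and rose 9.13-fold (3.19 ± 0.24, adjusted p = 0.000866). Col5a2 lies next to Col3a1 on chromosome 1 in assembly GRCm38.p6. Col5a3, the third type V chain, was dim in mucosa at 5.92 and 4.42 and read 8.23 and 7.37 in tumours, at least 4.71-fold higher (adjusted p = 0.0210). Its call ended without the second control mucosa array, without the first control tumour array and in 2 other alternatives of 16. Col27a1, a fibrillar chain of cartilage and developing tissue, rose at least 3.92-fold (adjusted p = 0.0404), a call lost in 10 of 18 alternatives. Col11a2 was at least 2.69-fold higher and did not pass (adjusted p = 0.0577).

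**Figure D1:**
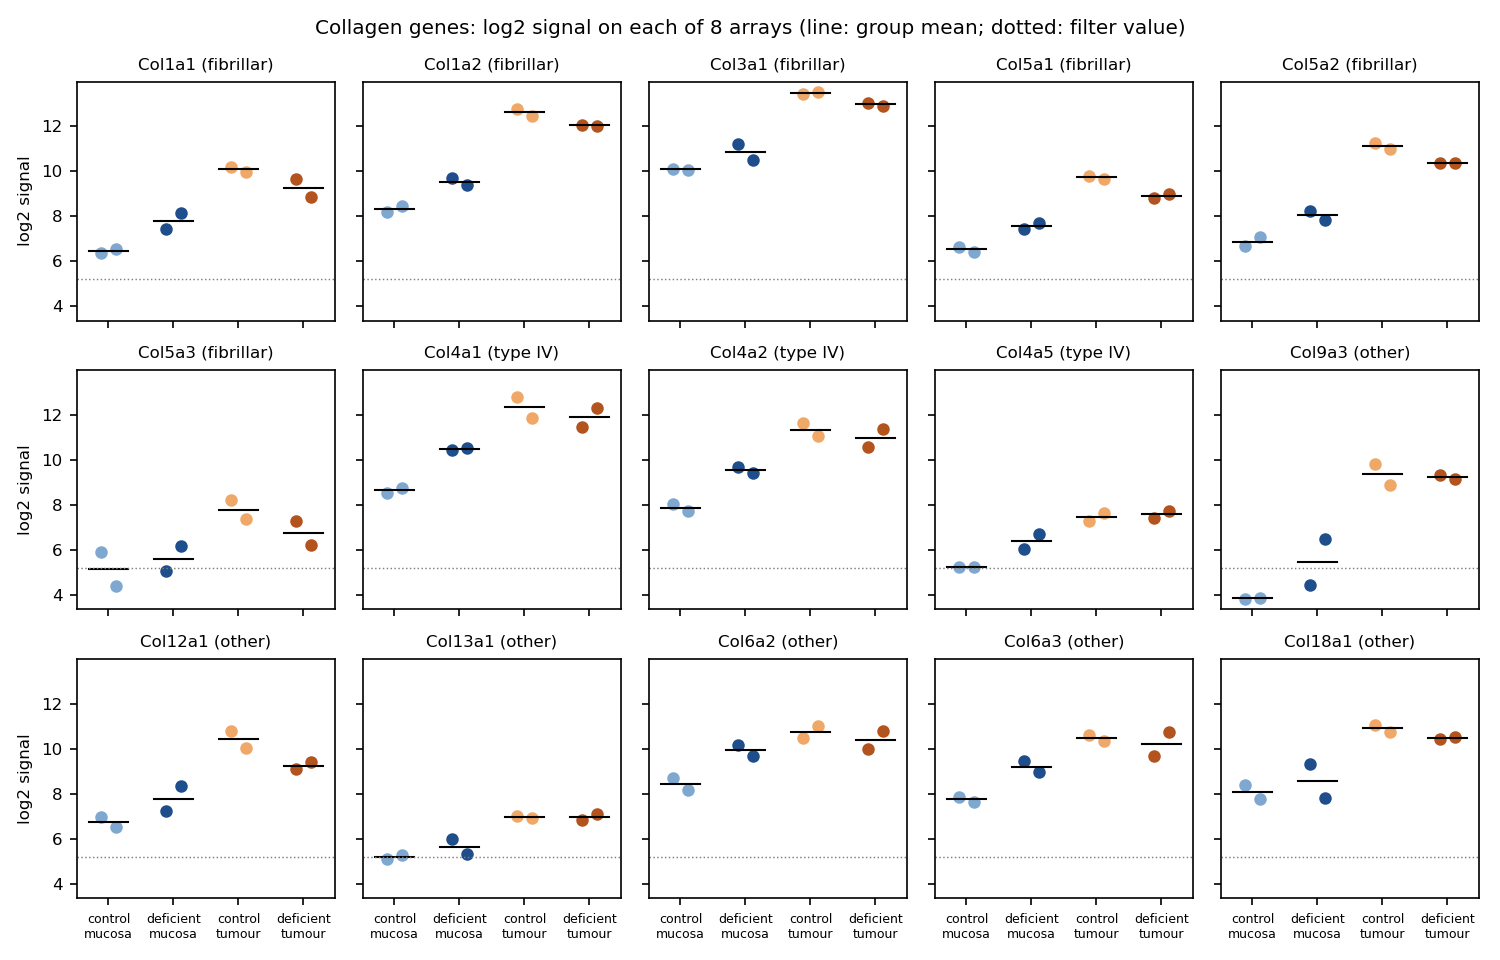
Log2 signal (vertical axis) of 15 collagen genes on each of the 8 arrays, by group. Points are arrays, black lines are group means of 2 arrays and the dotted line is the filter value of 5.20. For Col1a2 the 4 tumour arrays lie between 12.01 and 12.77 and the 4 mucosa arrays between 8.19 and 9.67.

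In control mice 3 of 4 tested type IV chains rose and Col4a6 did not pass, where 21.2% of all genes tested were called higher. Col4a1 and Col4a2, the chains of the common network of basement membranes, are neighbours on chromosome 8. Col4a1 read 8.54 and 8.76 in mucosa and 12.78 and 11.88 in tumours, a 12.9-fold rise (3.68 ± 0.39 log2, adjusted p = 0.00155). Col4a2 read 8.04 and 7.72 against 11.62 and 11.07 and rose by 3.46 ± 0.35 (adjusted p = 0.00138). Col4a5 read 5.25 on both mucosa arrays and 7.29 and 7.66 in tumours, a 4.68-fold rise (2.23 ± 0.30, adjusted p = 0.00305). Its second probe set above the filter showed a difference of 0.05. Col4a6, the neighbour of Col4a5 on the X chromosome and its partner in some basement membranes, read 4.79 and 5.46 against 5.82 and 4.08. Its tumour arrays spanned the mucosa values (-0.17 ± 0.53, limma adjusted p = 0.836). Both means, 5.12 in mucosa and 4.95 in tumours, lay under the filter value, which limits what can be said of Col4a6. The brightest probe sets of Col4a3 and Col4a4, chains known from kidney and lung, had means under the filter and were not tested.

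Among other collagens 10 of 17 tested genes rose in control tumours, none fell and 7 did not pass. Over all genes tested 21.2% were called higher and 7.64% lower. Of the 10, Col9a3 and Col13a1 had control mucosa means under the filter value. Col9a3, a chain of type IX, which coats cartilage fibrils, read 3.85 and 3.88 in mucosa and 9.82 and 8.90 in tumours. Both mucosa arrays were under the filter value, so the gene was at least 17.8-fold higher (adjusted p = 0.00178). Of the other type IX chains, Col9a1 was at -0.20 ± 0.36 log2 (adjusted p = 0.708), while its second probe set above the filter was at 1.74. Col9a2 was not tested. It read 2.68 and 1.74 in mucosa against 5.96 and 5.25 in tumours, at least 1.32-fold higher. Col12a1, which binds the surface of type I fibrils, read 6.96 and 6.53 against 10.81 and 10.04 (3.68 ± 0.43, adjusted p = 0.00200). With the mean of its 4 probe sets the Col12a1 difference was 0.52 and the call ended (adjusted p = 0.521).

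Type VI collagen forms beaded filaments close to cells. Its 4 tested chains all rose in control tumours, where 21.2% of all genes tested were called higher. Col6a3 read 7.88 and 7.65 in mucosa and 10.60 and 10.36 in tumours (6.58-fold, adjusted p = 0.00353). Col6a2 read 8.69 and 8.17 against 10.49 and 10.99 (4.96-fold, adjusted p = 0.00513), and Col6a1, its neighbour on chromosome 10, rose 4.22-fold. Col6a4 rose 2.98-fold, a call that ended in 10 of 18 alternatives. Col18a1, the basement membrane collagen whose end fragment is endostatin, read 8.38 and 7.76 against 11.07 and 10.74 (7.15-fold, adjusted p = 0.00614). Col13a1, a transmembrane collagen of cell contacts, read 5.13 and 5.27 against 7.0 and 6.95 and rose at least 3.35-fold (adjusted p = 0.00500). The fibril-associated Col16a1 (1.79 ± 0.35) and Col14a1 (1.77 ± 0.49) rose as well, and the Col14a1 call ended without any 1 of the 4 control arrays. The groups did not overlap for Col15a1 (2.02 ± 1.03, adjusted p = 0.181) and Col7a1 (0.79 ± 0.45, adjusted p = 0.227), and neither passed. Col20a1, Col22a1, Col23a1 and Col25a1 lay between -0.65 and 0.08.

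In HAI-1 deficient mice 6 of 29 collagens rose from mucosa to tumour, none fell and 23 did not pass, while 4.20% of all genes tested were called, 2.45% higher and 1.75% lower. The 6 were 4 fibrillar genes, Col9a3 and Col13a1, and 0 of 4 type IV genes passed by limma, with 3 of the 4 at an unadjusted p under 0.05. The medians were 1.39 log2 for fibrillar, 1.30 for type IV and 0.99 for other collagens, against 0.18 over all genes tested. Within the low and then the high batch, where 1 array per group allows no test, they were 1.96 and 1.09 for fibrillar, 0.96 and 1.41 for type IV and 0.70 and 1.22 for others. The count of 6 depended on single arrays. It was 0 without either deficient mucosa array or the first deficient tumour array and 1 without the second. It was 2 without either control mucosa array, and 4 without either control tumour array.

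Col1a2 read 9.67 and 9.39 in deficient mucosa and 12.04 and 12.01 in deficient tumours, a 5.65-fold rise (2.50 ± 0.25 log2, SE, n = 2 arrays per group, limma adjusted p = 0.0222). Col5a2 read 8.25 and 7.85 against 10.34 on both tumour arrays (2.29 ± 0.27, adjusted p = 0.0249), and Col3a1 read 11.22 and 10.50 against 13.04 and 12.90 (2.11 ± 0.29, adjusted p = 0.0281). Col5a1 read 7.45 and 7.71 against 8.81 and 8.99 (1.32 ± 0.24, adjusted p = 0.0355). For each of these 4 both tumour arrays exceeded both mucosa arrays. Col9a3 read 4.47 and 6.48 against 9.34 and 9.17, at least 10.7-fold higher (adjusted p = 0.0303), and Col13a1 read 5.98 and 5.35 against 6.84 and 7.12 (1.31 ± 0.28, adjusted p = 0.0491). The Col13a1 call ended in 16 of 17 alternatives. Of 18 alternatives each, the call ended in 13 for Col5a1, 10 for Col9a3, 9 for Col3a1, 7 for Col5a2 and 6 for Col1a2. Col1a1 differed by 1.45 ± 0.36 (adjusted p = 0.0668), Col4a1 by 1.41 ± 0.39 (adjusted p = 0.0846), Col4a2 by 1.42 ± 0.35 (adjusted p = 0.0655) and Col18a1 by 1.93 ± 0.48 (adjusted p = 0.0676). Among all 29, 21 had both tumour arrays above both mucosa arrays, which holds for 36.6% of all genes tested. Col20a1 had both below, which holds for 18.9%.

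**Figure D2:**
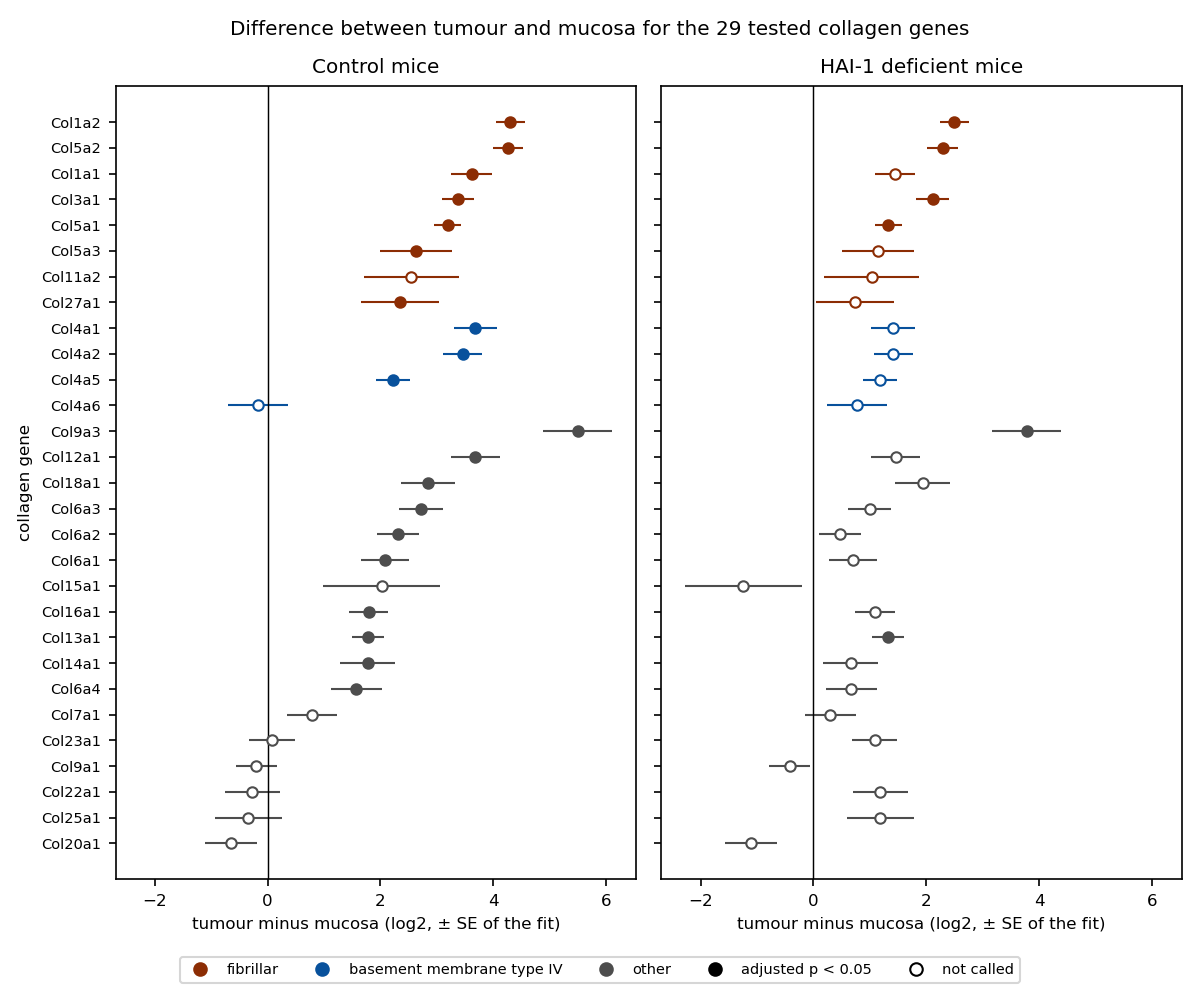
Difference between tumour and mucosa (log2, horizontal axis, with the standard error of the fit) for the 29 tested collagen genes, in control mice on the left and HAI-1 deficient mice on the right. Filled points passed the adjusted p threshold, 20 on the left and 6 on the right.

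Loss of HAI-1 in non-tumour mucosa asks what removal of the inhibitor from the epithelium does outside tumours. None of the 29 collagens was called by limma, against 1.05% of all genes tested (0.899% higher and 0.152% lower), at a smallest adjusted p of 0.0701. At an unadjusted p under 0.05 there were 17 of 29, and 2295 of the 13119 genes. The medians of deficient minus control were 1.20 log2 for fibrillar, 1.40 for type IV and 0.49 for other collagens, against 0.11 over all genes tested. Within the low and then the high batch, again 1 array per group, they were 1.12 and 1.11 for fibrillar, 1.22 and 1.58 for type IV and 0.61 and 0.32 for others. Both deficient arrays lay above both control arrays for 16 of the 29 genes, 6 of 8 fibrillar, 3 of 4 type IV and 7 of 17 others, which holds for 30.9% of all genes tested. Both lay below for Col22a1 and Col25a1, which holds for 17.3% of all genes.

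Values on the deficient mucosa arrays were 10.46 and 10.52 for Col4a1 against 8.54 and 8.76 in control mucosa, a difference of 1.84 ± 0.39 log2 or 3.58-fold (SE, n = 2 arrays per group, limma adjusted p = 0.0710). Col4a2 read 9.67 and 9.41 in deficient mucosa (1.65 ± 0.35, adjusted p = 0.0704) and Col4a5 6.07 and 6.72 (1.14 ± 0.30, adjusted p = 0.112). The second Col4a5 probe set above the filter was at -0.27 in this contrast, the opposite sign. Col1a2 differed by 1.21 ± 0.25 (adjusted p = 0.0701), Col5a2 by 1.19 ± 0.27 (adjusted p = 0.0829) and Col5a1 by 1.04 ± 0.24 (adjusted p = 0.0853). With a mean-variance trend Col1a2, Col4a1 and Col4a2 passed, at adjusted p = 0.0336, 0.0322 and 0.0340. With the 60th percentile filter Col5a2 passed as well, at adjusted p = 0.0489. Col1a1 read 7.45 and 8.14 in deficient mucosa (1.34 ± 0.36, adjusted p = 0.114) and Col3a1 0.79 ± 0.29 above control (adjusted p = 0.219). Of the type VI chains, Col6a2 was 1.5 ± 0.37 above control (adjusted p = 0.0983) and Col6a3 1.44 ± 0.38 (adjusted p = 0.114).

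In tumours the same contrast sets deficient against control tumours. No collagen was called by limma, as was 0% of all genes tested, at a smallest adjusted p of 0.779. There were 4 of 29 at an unadjusted p under 0.05, and 802 of 13119 genes. The medians of deficient minus control were -0.68 log2 for fibrillar, -0.14 for type IV and -0.30 for other collagens, against -0.01 over all genes tested. Within the low spike-in batch, 1 deficient array against both controls, they were -0.46, -0.42 and -0.39. Without the control tumour array whose Gapdh ends differed most, the fibrillar median was -0.90. Without the first deficient tumour array the type IV median was 0.13, the opposite sign.

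Both deficient tumour arrays lay below both control tumour arrays for 6 of 8 fibrillar genes, 0 of 4 type IV genes and 6 of 17 others, which holds for 19.4% of all genes tested. Both lay above for Col4a6 and Col23a1, which holds for 18.6%. Col12a1 read 9.09 and 9.41 in deficient tumours against 10.81 and 10.04 (-1.17 ± 0.43 log2), Col1a1 9.65 and 8.84 against 10.19 and 9.95 (-0.82 ± 0.36) and Col5a1 8.81 and 8.99 against 9.80 and 9.64 (-0.82 ± 0.24; SE, n = 2 arrays per group, limma adjusted p = 0.779 each). The second Col12a1 probe set above the filter was at 0.45 between the tumour groups, the opposite sign. Col4a1 and Col4a2 overlapped between genotypes, with Col4a1 at 11.48 and 12.32 against 12.78 and 11.88. Col15a1, a collagen of vessel and muscle basement membranes, read 6.37 and 2.69 against 8.35 and 7.33, at least 4.16-fold lower (adjusted p = 0.779), and most of that difference lay on the second deficient array. Differences between classes were not tested, because the members of a class are not replicates.

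**Figure D3:**
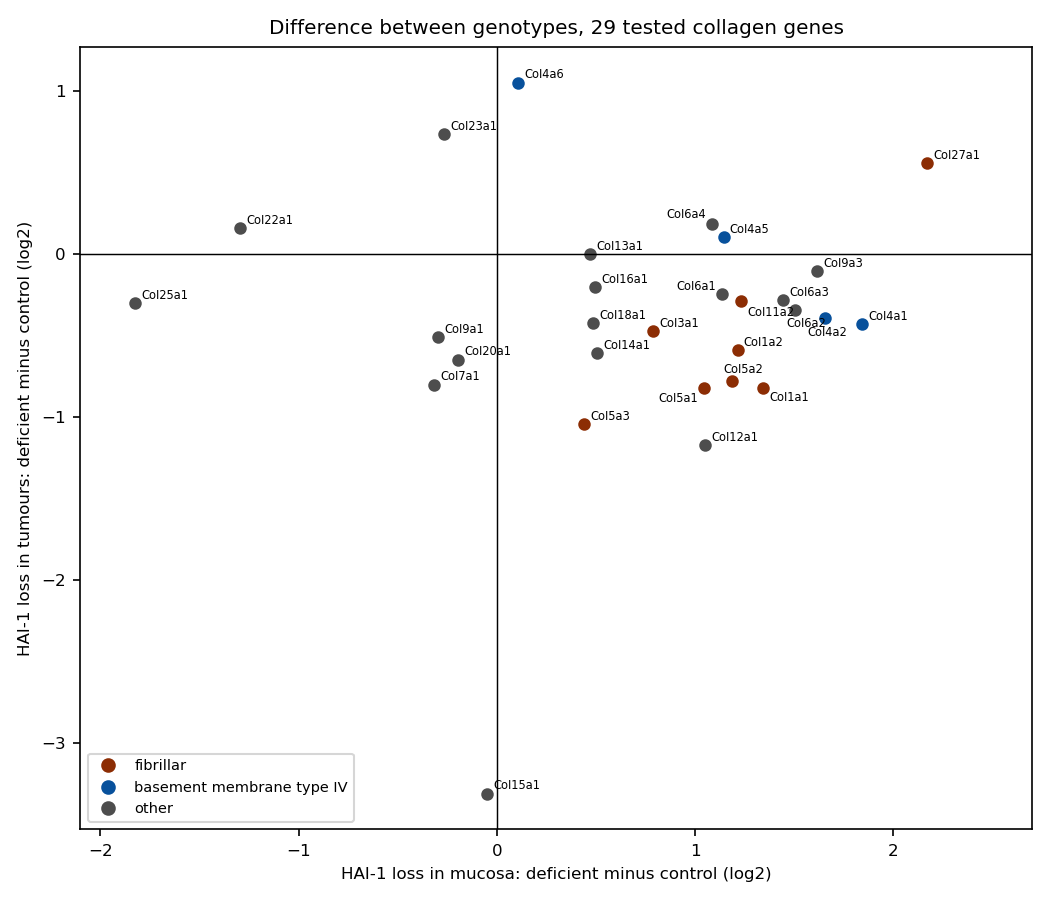
Deficient minus control (log2) in mucosa on the horizontal axis and in tumours on the vertical axis, 1 point per tested collagen gene, coloured by class. Most fibrillar genes lie right of 0 and below 0, Col4a1 and Col4a2 lie at 1.84 and 1.65 in mucosa, and no point passed the adjusted p threshold on either axis.

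The interaction, which sets the genotype difference of tumours against that of mucosa, was called for 0 of 29 collagens by limma and for 0% of all genes tested. There were 11 of 29 at an unadjusted p under 0.05, and 1211 of 13119 genes. It equals the tumour effect in deficient mice minus that in control mice. The medians were -1.71 log2 for fibrillar, -1.54 for type IV and -0.90 for other collagens, against -0.12 over all genes tested. The smallest adjusted p was 0.254, for Col1a2 (-1.80 ± 0.36), Col5a1 (-1.87 ± 0.34) and Col5a2 (-1.97 ± 0.38). Group means ran upwards from control mucosa through deficient mucosa and deficient tumours to control tumours in 7 of 8 fibrillar, 2 of 4 type IV and 8 of 17 other collagens, and in 16.8% of all genes tested. Col27a1 was the fibrillar exception, with its highest mean in deficient tumours. In 6 of 29 collagens the deficient arrays lay above the control arrays in mucosa and below them in tumours with no overlap in either, which holds for 4.15% of all genes tested.

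Enzymes and chaperones of collagen synthesis came to 17 tested genes, of which 8 rose and none fell in control tumours (median 1.18 log2), where 21.2% of all genes tested were called higher. The largest fitted rises were those of Pcolce2 (at least 4.40 log2, adjusted p = 0.00305) and Pcolce (3.37 ± 0.25, adjusted p = 0.000866), which speed removal of the procollagen end peptide, the collagen chaperone Serpinh1 (3.01 ± 0.39, adjusted p = 0.00271) and Crtap, a subunit of the prolyl 3-hydroxylase complex (2.59 ± 0.26, adjusted p = 0.00139). In deficient tumours 1 rose, Crtap (1.31 ± 0.26, adjusted p = 0.0428), where 2.45% of all genes were called higher. In deficient mucosa, where 0.899% were, 1 rose, Pcolce, which read 8.18 and 7.81 against 6.15 and 6.38 in control mucosa (1.73 ± 0.25, adjusted p = 0.0395). Between deficient and control tumours limma called 0, with Pcolce at -0.83 ± 0.25 and Serpinh1 at -1.14 ± 0.39 (adjusted p = 0.779 each).

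Of 10 tested genes of cross-linking and fibril assembly 7 rose in control tumours and none fell (median 3.18 log2), against 21.2% of all genes called higher. Lox and Loxl1, lysyl oxidases that start cross-links, rose by at least 3.16 and 3.07 log2 (fitted 4.47 and 4.60). The fibril-binding proteoglycan Dcn rose by 4.36 ± 0.34 and the collagen-binding Sparc by 3.73 ± 0.35. Lum, Bgn and Pxdn rose by 3.54, 2.81 and 2.39. In deficient tumours 3 of 10 rose, Dcn (2.37 ± 0.34), the proteoglycan Lum (at least 3.32) and Sparc (1.60 ± 0.35), against 2.45% of all genes. In deficient mucosa 0 were called by limma, and the smallest p belonged to Pxdn, the peroxidase that cross-links type IV (1.65 ± 0.35, adjusted p = 0.0731), and Sparc (1.60 ± 0.35, adjusted p = 0.0742). Lum went the other way there, with 4.56 and 5.04 in deficient against 5.75 and 6.59 in control mucosa (adjusted p = 0.185).

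Of 9 tested collagen receptors 3 rose in control tumours and none fell, namely Mrc2, which takes up collagen into cells (at least 1.72 log2), the receptor tyrosine kinase Ddr2 (1.27 ± 0.39) and the integrin chain Itga1 (0.93 ± 0.27). This count is near the 21.2% of all genes called higher and is no result about receptors as a group. In deficient tumours 1 of 9 rose, Mrc2 (at least 1.53, limma adjusted p = 0.0338), against 2.45% of all genes called higher. The Mrc2 means in control and deficient mucosa, 4.41 and 4.10, lay under the filter value. Of 13 tested basement membrane partners 6 rose in control tumours and none fell, against 21.2% and 7.64% of all genes. They were the laminin chains Lama4 (at least 2.75), Lamb1 (2.76 ± 0.35), Lamc1 (2.37 ± 0.35), Lama1 (at least 1.41) and Lama2 (at least 1.30) and the linker Nid1 (2.84 ± 0.36). In deficient tumours 0 were called by limma. In deficient mucosa 1 of 13 rose, against 0.899% of all genes. This was Lamb1, at 10.07 and 10.13 against 8.01 and 8.0 in control mucosa (2.10 ± 0.35, adjusted p = 0.0448), while Nid1 was 1.87 ± 0.36 above control (adjusted p = 0.0599).

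In control tumours most stromal markers rose. In deficient tumours all fibroblast (0.85 to 3.72), smooth muscle (1.51 to 3.47) and tested endothelial differences (0.32 to 1.03 log2) were positive. Fewer of them were called. Between genotypes the fibroblast and endothelial lists held differences of both signs. The mean of 7 fibroblast markers, of which Dcn and Lum are also in the assembly list, was 7.13 and 7.49 log2 in control mucosa and 7.86 and 7.76 in deficient mucosa. In tumours it was 10.34 and 10.54 for controls and 9.86 and 9.52 for deficient mice. All 7 rose in control tumours and 3 in deficient tumours, where 21.2% and 2.45% of all genes tested were called higher. In deficient mucosa none was called by limma, with Pdgfra at 2.14 ± 0.45 (adjusted p = 0.0703) and Pdgfrb at 1.44 ± 0.27 (adjusted p = 0.0582). Dcn and Vim were also above control there (1.37 and 0.63), and Lum, Dpt and Thy1 below (-1.37, -0.46 and -0.25, adjusted p = 0.185, 0.792 and 0.779). Between deficient and control tumours the fibroblast median was -0.92. The mean of 6 endothelial markers was 5.67 and 5.80 in control mucosa and 7.0 and 6.76 in deficient mucosa. In tumours it was 7.94 and 7.12 for controls and 7.52 and 7.87 for deficient mice. Of 5 tested, Cdh5 and Tek rose in control tumours and none passed in deficient tumours. In deficient mucosa, where 0.899% of all genes were called higher, Tek rose by at least 2.21 log2 (limma adjusted p = 0.0348). Kdr was at -0.10 there. All 6 smooth muscle markers rose in control tumours and 2 in deficient tumours. Their mean was 6.01 to 6.26 in control mucosa, 6.95 to 7.87 in deficient mucosa and 9.07 to 10.26 in the 4 tumours. In deficient mucosa none was called, and their differences from control ran from 0.66 to 2.34. Between deficient and control tumours their median difference was 0.04. The mean of 4 macrophage markers was 7.42 to 8.42 on the 8 arrays, and the single markers differed in direction, with Itgam at -1.29 and Cd68 at 0.89 in control tumours and 0 of 4 called by limma in any comparison. Of 3 pericyte markers Rgs5 and Notch3 rose in control tumours and Cspg4 was at -0.12 ± 0.56 (adjusted p = 0.891). The mesothelial marker Msln rose in control tumours (at least 2.36, limma adjusted p = 0.00295) and deficient tumours (2.20 ± 0.32, adjusted p = 0.0281). In deficient mucosa it was 1.22 ± 0.32 above control (adjusted p = 0.114). Wt1 and Upk3b had means under the filter and were not tested. Upk3b went the other way in tumours, with 5.69 and 4.94 in control mucosa against 1.60 and 1.96 in control tumours. In deficient mice Upk3b read 6.71 and 5.88 in mucosa against 2.48 and 3.03 in tumours. Cela1 of the pancreas list rose in control tumours (2.48 ± 0.35) and deficient tumours (1.91 ± 0.35), while the other, Cpa1, read 1.25 to 3.50 log2. Of 3 T cell markers 2 fell in control tumours and 1 fell in deficient tumours. Over all genes tested 7.64% and 1.75% were called lower there. The T cell list mean was 9.20 and 8.67 in control mucosa, 8.08 and 7.38 in deficient mucosa and 6.43 to 7.96 in tumours. In deficient mucosa all 3 T cell markers lay below control mucosa with no overlap, and limma called none. Sox9, which drives cartilage collagens and is also made by intestinal crypt cells, rose in control tumours (3.0 ± 0.42) and deficient tumours (2.61 ± 0.42), while the cartilage markers Acan and Matn1 had means under the filter. The part of these cell types in the collagen differences was not tested.

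**Figure D4:**
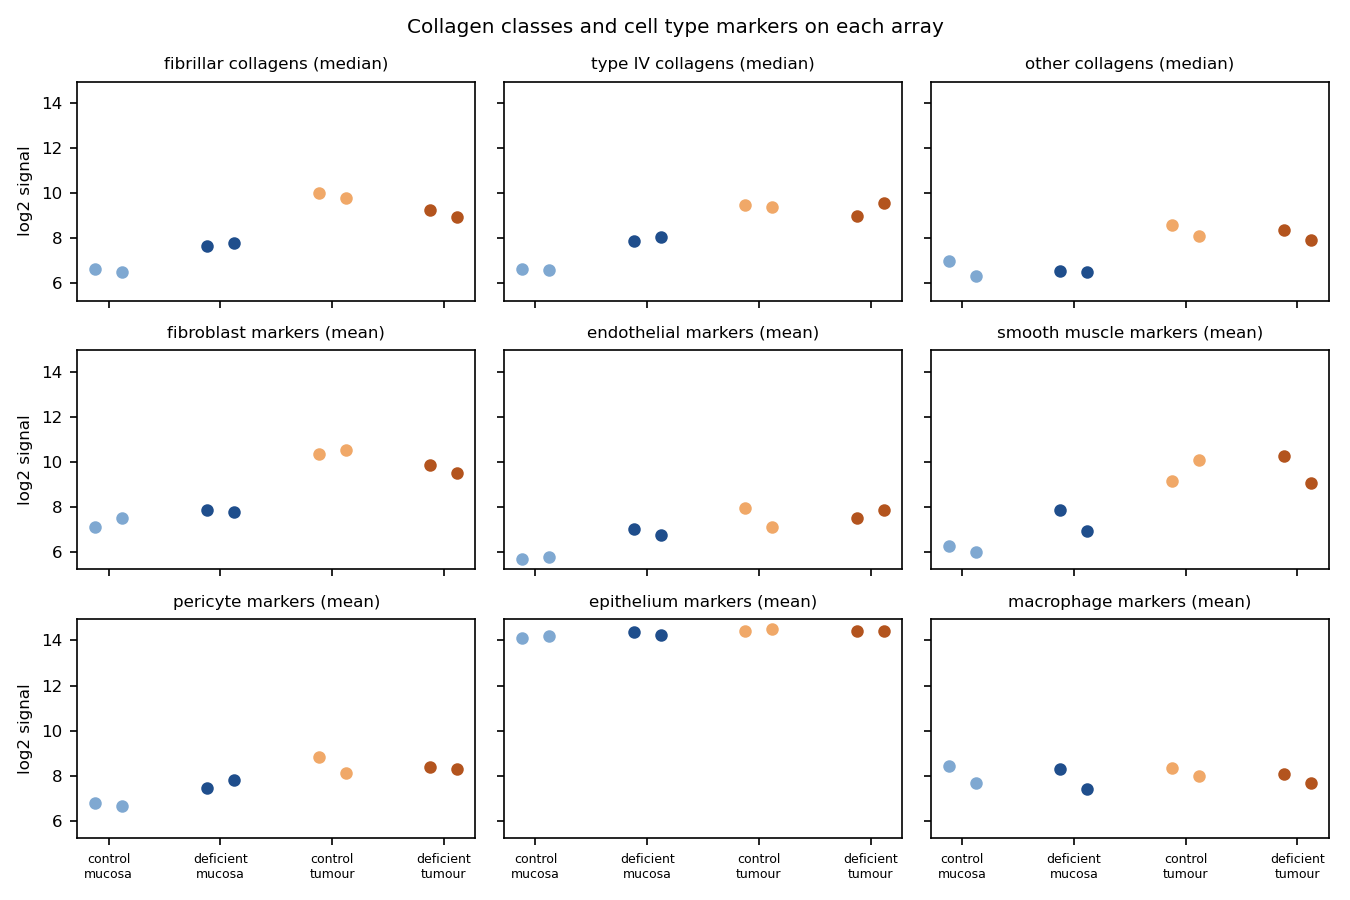
Median log2 signal of the tested collagens of each class (top row) and mean log2 signal of marker lists (middle and bottom rows) on each array, 2 points per group. The fibrillar median runs from 6.48 and 6.64 in control mucosa to 9.79 and 9.99 in control tumours, and the epithelial mean stays between 14.11 and 14.50.

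The 13 collagens under the filter had no test. They were the fibrillar Col2a1, Col11a1 and Col24a1, the type IV chains Col4a3 and Col4a4, and Col6a5, Col8a1, Col8a2, Col9a2, Col10a1, Col17a1, Col19a1 and Col26a1. Col8a1, a short-chain collagen of vessels, read 1.16 and 4.76 in control mucosa against 7.5 and 6.5 in control tumours, and 4.11 and 2.11 in deficient mucosa against 5.79 and 5.51 in deficient tumours. It was at least 3.47-fold higher in control tumours than in control mucosa, with no overlap between the groups. Col2a1 and Col10a1, the main collagens of cartilage and its growth zone, stayed under the filter value on every array.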

How the data were processed

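RNA was measured in 8 samples, 2 in each of 4 groups. Per the labels, RNA was labelled in 1 Affymetrix cycle from 6 ug. The deposited table holds log2 values for 45101 probe sets. Per the submitters' processing notes MAS5 and RMA were used, without version or role. The deposited log2 values are of the MAS5 kind, since the linear mean of every array, trimmed by 2% at either end, was 500.003 to 500.004. They were used unscaled. Detection calls were not used, and 2 arrays per group limit the precision.

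Of 34958 single-gene probe sets, the brightest per gene was kept, and 18194 genes were reduced to 13119 by the 40th percentile filter (5.20 log2). Limma 3.58.1 in R 4.3.3 fitted 4 group means to all arrays (4 residual and 3.52 prior degrees of freedom) and 5 contrasts, two-sided, and was tested on simulated data. Collagen identifiers were all found in RefSeq GRCm38.p6; probe positions were not used here. Figures used python 3.11.15.

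Collagens, partner genes and markers were chosen with earlier results of these data known. Array values are given for called members, up to 6 per class by smallest adjusted p. Up to 4 called genes per partner list are named by the size of the fitted difference, which can exceed the printed bound, or 2 by smallest p where none was called. Other genes, such as Col15a1, Col8a1, Lamc1, Lama1, Bgn, Lum and named markers, were chosen after their values were seen. Alternatives were quantile normalization, no filter, a 60th percentile filter, the mean of probe sets, a mean-variance trend, raising low values, fits to only the groups compared, the spike-in batch, replicate blocks and leaving out each array.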

Additional observations from a re-analysis of the deposited data

Results flagged for a closer look

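For 6 collagens every deficient mucosa array lay above every control mucosa array, while every deficient tumour array lay below every control tumour array. This pattern held for 6 of 29 tested collagens and for 4.15% of all genes tested. The genotype difference in tumours less the one in mucosa was -2.22 log2 for Col12a1, -2.17 for Col1a1, -1.97 for Col5a2, -1.87 for Col5a1, -1.80 for Col1a2 and -1.26 for Col3a1. The limma test of this difference passed for none of the 6, at adjusted p = 0.254 to 0.435, and 1211 of 13119 genes had an unadjusted p under 0.05. For Col12a1 the second probe set above the filter gave 1.42, the opposite sign.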

How the results depend on the processing

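In control tumours the count of called collagens, 20, was 17 to 21 under the other settings and 15 to 20 without single arrays. In deficient tumours the count, 6, was 0 with no filter, when each fit held its own 2 groups alone and with a replicate block within genotype, 3 with the mean of probe sets, 10 with low values raised, and 0 to 4 without single arrays. In deficient mucosa the count, 0, was 4 under the stricter filter at the 60th percentile, 3 when the prior followed a mean-variance trend and 2 with low values raised, all higher, and 0 under each other setting and without any single array. For HAI-1 loss in tumours and for the interaction it was 0 throughout. No called collagen changed sign.

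With the replicate number as a block 19 collagens were called in control tumours and 4 in deficient tumours. Deviations of same-numbered arrays correlated at -0.14 to 0.22 between groups, so the numbers were not taken as pairs.

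The median of a class moved by more than the spread between replicates as follows. In control tumours it was 2.63 for fibrillar and 1.63 for type IV with no filter, 3.50, 3.57 and 2.31 for fibrillar, type IV and others with the 60th percentile filter, and 3.09 for type IV with the mean of probe sets. In deficient tumours it was 1.23 for fibrillar with quantile normalization, 1.14 for fibrillar and 0.98 for type IV with no filter, 1.78 for fibrillar with the 60th percentile filter and 1.07 for type IV with the mean of probe sets. In deficient mucosa it was 0.97 for type IV with no filter, and 1.75 for type IV and 1.09 for others with the 60th percentile filter. For HAI-1 loss in tumours it was -0.47 for fibrillar with no filter, -0.41 for type IV with the 60th percentile filter, and -0.42 and -0.39 for fibrillar and type IV with the mean of probe sets. For the interaction it was -2.16 for type IV and -1.38 for others with the 60th percentile filter, -1.51 and -2.04 for fibrillar and type IV with the mean of probe sets, and -1.53 for fibrillar with low values raised. The 2 filter settings change which genes are in a class. The cause of the other shifts was not tested.

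Without single arrays the medians of fibrillar, type IV and other collagens ranged from 3.27 to 3.53, 2.76 to 2.90 and 1.53 to 1.95 in control tumours, and from 1.23 to 1.77, 1.0 to 1.58 and 0.46 to 1.18 in deficient tumours. They ranged from 1.03 to 1.25, 1.30 to 1.5 and 0.14 to 0.73 in deficient mucosa, from -0.90 to -0.46, -0.42 to 0.13 and -0.44 to -0.25 for HAI-1 loss in tumours, and from -2.03 to -1.48, -1.82 to -1.27 and -1.11 to -0.50 for the interaction. Leaving out 1 array leaves its group with a single array that is assumed to vary like the other groups. With 2 arrays per group and no detection calls, low signals limit what can be called.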

Other observations

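Probe sets of 1 gene mostly moved together. Of 27 collagens with several probe sets, 16 had more than 1 above the filter, and in 14 of the 16 these had the same sign in control tumours against mucosa. The exceptions were Col12a1, at 3.68 and -0.16 log2, and Col9a1, at -0.20 and 1.74. Col4a5, at 2.23 and 0.05, had the same sign with very different sizes. The 2 probe sets of Col9a3 above the filter gave 5.5 and 4.10. Which transcripts the probe sets cover was not examined.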
